A study of Bos indicus with 12 samples.

Results

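The class I antigen presentation genes described here are B2M, TAP1, TAP2, TAPBP, NLRC5, ERAP1, CALR, CANX and PDIA3. They were chosen by symbol as the genes that make, load and stabilise class I molecules, with the class I heavy chains of cattle (BOLA) and the proteasome left aside. Of the 9 symbols 7 were matched to an identifier in the table, out of 26229 identifiers in all, and all 7 were among the 15420 genes tested. TAP2 and CANX were not analysed here. Nearly every nucleated cell shows peptides from its own proteins on class I molecules, where CD8 T cells read them, and lymphocytes carry these molecules in large amounts. Peptides made in the cytosol are pumped into the endoplasmic reticulum by the TAP transporter, trimmed by ERAP1, and loaded onto a heavy chain paired with beta-2 microglobulin (the product of B2M) while tapasin (TAPBP), calreticulin (CALR) and the disulphide isomerase PDIA3 hold the groove open. NLRC5 is a nuclear coactivator of class I genes, and interferon gamma is its best known inducer.

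Blood RNA was sequenced from 12 female Bos indicus cows, in the second and the third lactation, of the Gir and Shweta Kapila breeds. Each breed gave 3 high-yielding and 3 low-yielding cows, classed by lactation record within the breed, so the 4 groups are Gir high, Gir low, Shweta Kapila high and Shweta Kapila low. The labels name no agent, and the title puts the question as the molecular basis of milk production in indigenous cattle. Yields in litres were not used here. Every library is 1 cow, and cow numbers 1 to 3 are the replicate numbers of the labels.

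Totals ran from 14.2 M to 27.2 M counts per library. The 3 libraries above 22 M, Shweta Kapila high 3, low 1 and low 2, also had the highest scores on the first principal component (37.7% of the variance) and the highest shares of counts on 37 short identifiers that carry no name (9.00% to 13.1%, against 4.54% to 8.70% in the others). The labels name mononuclear cells, but an RNA kit made for whole blood was used. Neutrophil markers (5 of 6 measured, none at 0) summed to between 1282 and 4238 CPM (counts normalised to library size) in every library. Whether neutrophils were in the samples was not tested. In a mixture of blood cells, fewer cells of a type and less RNA per cell cannot be told apart.

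NLRC5 (identifier 109572652) was the member that separated the Shweta Kapila yield classes. It stood at 658, 583 and 564 CPM in the high-yielding cows 1 to 3 and at 409, 392 and 422 CPM in the low-yielding cows 1 to 3. All 3 high-yielding cows lay above all 3 low-yielding cows, and the 2 groups were also tight, with coefficients of variation of 8.28% and 3.64%. In Gir the values were 424, 590.2 and 448 CPM with high yield and 506, 532 and 485 CPM with low yield. These overlap, and Gir high 2 reached the level of the high-yielding Shweta Kapila cows. Ordered by their means, Shweta Kapila high (601 ± 49.8 CPM, SD, n = 3) was followed by Gir low (507 ± 23.4), Gir high (487 ± 89.9) and Shweta Kapila low (408 ± 14.9). Of neighbours in that order, the 2 Gir groups overlapped in range, and the range of Gir high also overlapped that of Shweta Kapila high.

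The log2 fold change of NLRC5 for high over low yield was 0.56 ± 0.19 (SE; 95% interval 0.14 to 0.98) in Shweta Kapila. Its unadjusted p was 0.013, rank 296 of 15420 genes, and the adjusted p of edgeR's quasi-likelihood test was 0.655, so it was not called. Over all alternative settings the adjusted p lay between 0.0906 (without Shweta Kapila low 3) and 0.996. The log2 fold change was 0.55 without the 3 largest libraries and 0.47 with the share of the short identifiers as a covariate. Without those 3 libraries, Shweta Kapila high 1 and high 2 are set against low 3 alone. In Gir it was −0.06 ± 0.19 (95% interval −0.48 to 0.36). Subtracting the Shweta Kapila yield difference from that of Gir gave −0.62 ± 0.27 (95% interval −1.21 to −0.03; unadjusted p = 0.0419, adjusted p = 0.955), so a difference between the breeds was not called either.

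Markers of other cells moved with NLRC5 in Shweta Kapila. Summed T cell markers (9 of 9 measured) ran from 3525 to 4888 CPM with high and from 2181 to 2984 CPM with low yield. Summed NK and cytotoxic markers (6 of 8) ran from 709 to 1597 against 349 to 613 CPM. Neither pair of ranges overlaps, and no measured marker of either list was at 0 in a group. Singly, 5 of the 9 T cell and 4 of the 6 NK and cytotoxic markers were higher without overlap, where 3.51% of all genes were. TCF7 (−0.20) and KLRK1 (−0.03) were the markers of these lists with log2 fold changes below 0. All 7 measured B cell markers (of 8) had log2 fold changes below 0, with a median of −1.13, and 0 were called by edgeR. At an unadjusted p under 0.05, 4 of these B cell markers were lower, where 2.93% of all genes were. Their sums ran from 576 to 695 CPM with high and from 617 to 2444 CPM with low yield, ranges that overlap. Interferon response genes (11 of 12 measured) pointed the other way from NLRC5, at 693 to 1273 CPM with high and 1205 to 2101 CPM with low yield, ranges that overlap. The part of these cells and of the interferon response in the NLRC5 values was not tested.

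**Figure D1:**
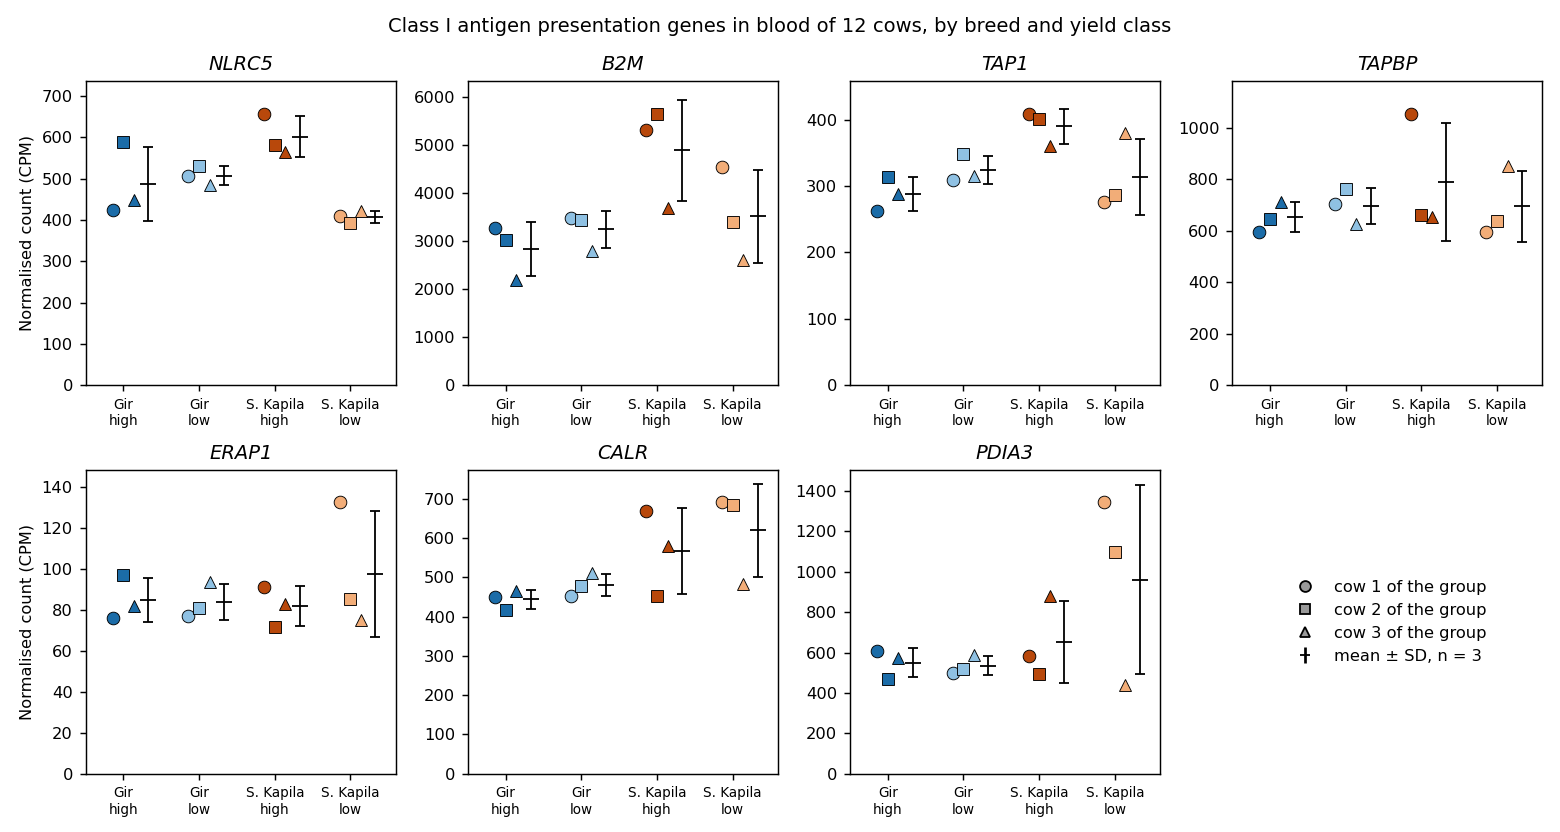
Normalised counts (CPM) of the 7 measured genes in each of the 12 cows, by breed and yield class. Marker shape gives the cow's number in its group, and black bars give mean ± SD (n = 3). NLRC5 is the gene whose high- and low-yielding Shweta Kapila cows do not overlap, while PDIA3 is highest in Shweta Kapila low 1, low 2 and high 3.

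B2M (identifier 109565432), the light chain shared by all class I molecules, made up 0.216% to 0.6% of a library. In Shweta Kapila it stood at 5319.9, 5653 and 3689 CPM in high 1 to 3 and at 4535, 3405 and 2608 CPM in low 1 to 3. Gir cows had 3280.1, 3023 and 2196 CPM with high and 3481, 3443 and 2798 CPM with low yield. Thus the 2 highest values were both from high-yielding Shweta Kapila cows, and the lowest was from a high-yielding Gir cow. The log2 fold change for yield was 0.48 ± 0.27 in Shweta Kapila (95% interval −0.11 to 1.06; unadjusted p = 0.104) and −0.19 ± 0.27 in Gir (−0.78 to 0.39; unadjusted p = 0.486). The yield classes overlapped in both breeds.

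For the transporter and loading genes TAP1 and TAPBP the yield classes overlapped in both breeds. TAP1 (identifier 109577139), 1 chain of the peptide pump, stood at 409, 401 and 359.9 CPM in Shweta Kapila high 1 to 3 and at 276, 286 and 380.1 CPM in low 1 to 3. Low 3 lay inside the range of the high-yielding cows, and the other 2 low-yielding cows lay below them. Gir cows had 263, 314 and 287 CPM with high and 309, 348 and 315 CPM with low yield, with Gir high 2 and Gir low 1 each inside the range of the other class. TAPBP (identifier 109576595), tapasin, which tethers the empty class I molecule to TAP, stood at 1056, 659.7 and 655 CPM in Shweta Kapila high 1 to 3 and at 594, 639.7 and 851 CPM in low 1 to 3. Its 2 highest values of the 12 were thus from 1 high-yielding and 1 low-yielding cow. In Gir it ran from 597 to 713 CPM with high and from 625 to 763 CPM with low yield. The log2 fold change for yield in Shweta Kapila was 0.31 ± 0.19 for TAP1 (95% interval −0.11 to 0.74) and 0.19 ± 0.24 for TAPBP (−0.34 to 0.71). That of TAPBP was −0.07 without Shweta Kapila high 1. In Gir the values were −0.17 ± 0.19 for TAP1 and −0.10 ± 0.24 for TAPBP.

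ERAP1 (identifier 109562343), the peptidase that trims peptides to class I length, was the member with the fewest counts, from 1135 to 2983 per library. It stood at 91.2, 71.6 and 82.7 CPM in Shweta Kapila high 1 to 3 and at 133, 85.3 and 75.2 CPM in low 1 to 3. A single cow, low 1, stood above the rest. In Gir it ran from 76.2 to 97.0 CPM with high and from 77.0 to 93.7 CPM with low yield, nearly the same range. The log2 fold change for yield was −0.26 ± 0.24 in Shweta Kapila (95% interval −0.77 to 0.26), 0.02 without low 1, and 0.02 ± 0.24 in Gir (−0.50 to 0.53).

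The 2 chaperones were highest in Shweta Kapila low 1, as was ERAP1. NLRC5, TAP1 and TAPBP were highest in high 1, and B2M in high 2. PDIA3 (identifier 109575507), also called ERp57, the isomerase that is joined to tapasin in the loading complex, stood at 582, 493 and 879 CPM in Shweta Kapila high 1 to 3 and at 1345, 1099 and 439 CPM in low 1 to 3. Low 1, low 2 and high 3, the 3 largest libraries, were above the other 9 cows, and low 3 was the lowest of all 12. In Gir PDIA3 stayed between 471 and 608 CPM with high and between 497 and 589 CPM with low yield. CALR (identifier 109561526), a lectin chaperone that holds newly folded class I molecules, stood at 668, 452 and 580.2 CPM in Shweta Kapila high 1 to 3, at 691, 685 and 483 CPM in low 1 to 3, and between 417 and 510.4 CPM in Gir. For CALR, Shweta Kapila high 1 therefore stood with the 3 largest libraries. The log2 fold change for yield in Shweta Kapila was −0.56 ± 0.35 for PDIA3 (95% interval −1.33 to 0.21) and −0.13 ± 0.22 for CALR (−0.60 to 0.34). Without the 3 largest libraries these were 0.29 and 0.21, the other direction, but this sets high 1 and high 2 against low 3 alone. In Gir they were 0.04 ± 0.35 and −0.11 ± 0.22.

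**Figure D2:**
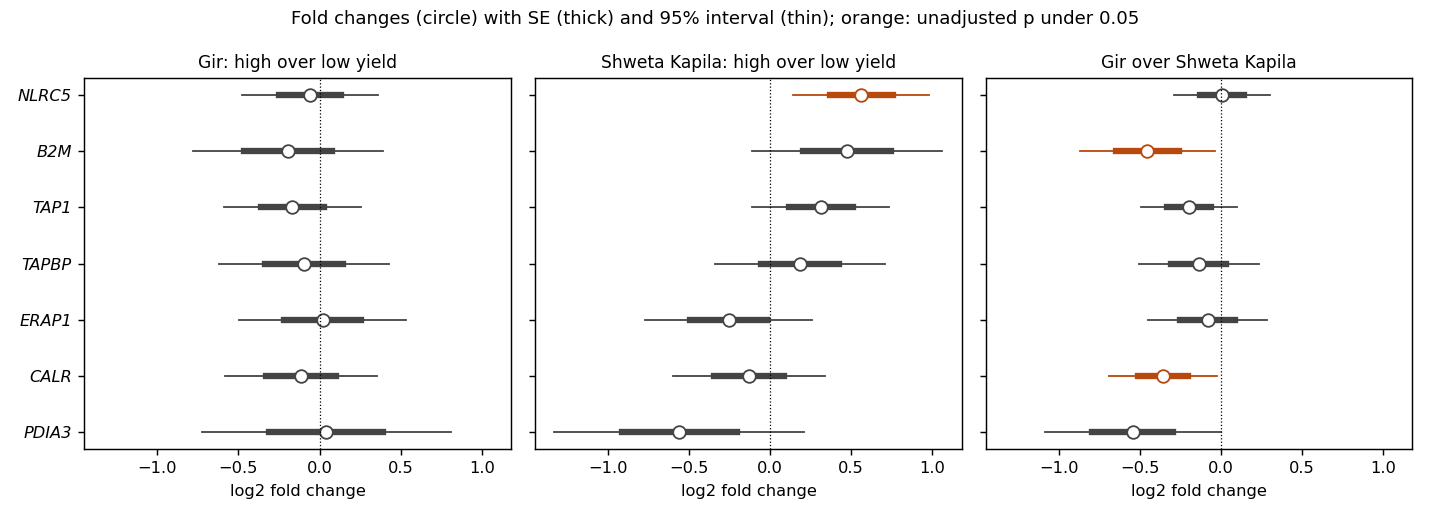
Log2 fold changes of the 7 genes from the fit over all 12 libraries (circle), with SE (thick line) and 95% interval (thin line), for yield in each breed and for Gir over Shweta Kapila. The intervals that leave out 0 are those of NLRC5 for yield in Shweta Kapila (0.14 to 0.98) and of B2M and CALR for breed.

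High against low yield in Shweta Kapila thus gave 4 members above 0 (NLRC5, B2M, TAP1 and TAPBP) and 3 below (ERAP1, CALR and PDIA3), with a median log2 fold change of 0.19 against −0.02 over all genes, of which 48.3% were above 0. No member passed the adjusted test (0 of 7), where 0% of all genes passed. At an unadjusted p under 0.05, 1 of 7 was higher, where 4.05% of all genes were, and 0 were lower, where 2.93% were. The yield classes did not overlap for 1 of 7, NLRC5, where 3.51% of all genes were separated in that direction. DESeq2 called 0 members as well, where it called 61 of the 15420 genes.

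High against low yield in Gir gave values close to 0 for all 7 measured members, from −0.19 to 0.04, with a median of −0.10 against −0.02 over all genes. Here 0 members passed (0% of all genes did), 0 had an unadjusted p under 0.05 (1.89% of all genes did) and 0 separated the yield classes (10.2% of all genes did). The 95% intervals still leave room for log2 changes of up to 0.81, for PDIA3, or down to −0.78, for B2M. DESeq2 called 0 members in Gir, where it called 1 of the 15420 genes.

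Averaged over both breeds, the yield differences of the members ran from −0.26 (PDIA3) to 0.25 (NLRC5). For NLRC5 the average was 0.25 ± 0.14 (95% interval −0.05 to 0.55; adjusted p = 0.874). Of the 7 members 0 passed in edgeR and in DESeq2, where 0% of all genes passed in edgeR and 4 of the 15420 in DESeq2. In edgeR 0 members had an unadjusted p under 0.05 (4.13% of all genes did). For the yield difference of Gir less that of Shweta Kapila 0 members passed in both tools (0% of all genes in edgeR, 9 of the 15420 in DESeq2). In edgeR 1 member, NLRC5, was lower at an unadjusted p under 0.05, where 2.35% of all genes were. B2M (−0.67 ± 0.38) and TAP1 (−0.48 ± 0.28) had the next lowest p of the members in that comparison, at unadjusted p-values of 0.105 each.

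Gir against Shweta Kapila placed 6 of the 7 members below 0, that is, lower in Gir, with a median of −0.20 against −0.04 over all genes, of which 54.9% were below 0. With 6 cows a breed, B2M stood at 3037 ± 487 (SD) in Gir against 4202 ± 1175 CPM in Shweta Kapila, a log2 difference of −0.45 ± 0.19 (95% interval −0.87 to −0.04; unadjusted p = 0.0351). CALR stood at 462 ± 31.2 against 593 ± 106 CPM (−0.36 ± 0.15; unadjusted p = 0.0366), and PDIA3 at 543 ± 55.0 against 806 ± 365 CPM (−0.54 ± 0.25; unadjusted p = 0.0502). NLRC5 did not follow, at 497 ± 59.8 against 505 ± 111 CPM (0.01 ± 0.14; 95% interval −0.29 to 0.30). None of the 7 passed the adjusted test in edgeR or in DESeq2 (0 calls). Over all genes edgeR called 0% and DESeq2 195 of the 15420. At an unadjusted p under 0.05, 2 of 7 were lower, B2M and CALR, where 5.79% of all genes were. The breeds overlapped for all 7 (0.603% of all genes did not overlap).

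The breed values rest in part on the largest libraries. Without the 3 of over 22 M counts the log2 fold change was −0.31 for B2M, −0.16 for CALR and 0.17 for PDIA3, so that PDIA3 pointed the other way. Shweta Kapila then rests on high 1, high 2 and low 3. Without Shweta Kapila low 3 PDIA3 was at −0.72 with an adjusted p of 0.0479 in edgeR, the only setting in which any member was called. Over all genes that setting called 447 for breed, where the main fit called 0. Summed T cell markers ran from 1991 to 3064 CPM in Gir and from 2181 to 4888 CPM in Shweta Kapila. Summed NK and cytotoxic markers ran from 230 to 549 CPM in Gir and from 349 to 1597 CPM in Shweta Kapila, and both pairs of ranges overlap. Their part in the values of B2M was not tested.

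Most members varied less from cow to cow than the median gene, and PDIA3 was near it. NLRC5 had a biological coefficient of variation of 0.1995 and TAP1 of 0.201, where the median gene had 0.341. Of all tested genes 1.10% and 1.35% varied less than these 2, and of genes within 1 log2 unit of their level 4.04% and 5.64% did. CALR (0.216), TAPBP (0.2335), ERAP1 (0.234) and B2M (0.253) were also under the median, and PDIA3 (0.317) was closest to it. Against genes of like level, 14.1% varied less than CALR, 23.7% less than B2M, 26.9% less than ERAP1 and 27.4% less than TAPBP, while 69.9% varied less than PDIA3. From the lowest to the highest cow the range was 1.56-fold for TAP1, 1.68-fold for NLRC5 and 3.06-fold for PDIA3. For all 7 measured members the coefficient of variation over 6 cows was larger in Shweta Kapila than in Gir (45.2% against 10.1% for PDIA3, 16.4% against 9.39% for TAP1), as it was for 81.5% of all genes.

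None of the 21 pairs of members passed after adjustment, and the highest values of r were those of CALR with PDIA3 and of TAP1 with NLRC5 and with TAPBP. Over the 12 cows, log2 CPM of TAP1 correlated with NLRC5 (Pearson r = 0.698, permutation p = 0.0139, adjusted p = 0.0974 over 21 pairs; Spearman rho = 0.671, adjusted p = 0.166). TAP1 correlated with TAPBP to the same degree (r = 0.69, permutation p = 0.00808, adjusted p = 0.0848; rho = 0.706, adjusted p = 0.166). The pair of CALR and PDIA3 had the highest r (0.811, permutation p = 0.00339, adjusted p = 0.0712; rho = 0.657, adjusted p = 0.166). ERAP1 and PDIA3 had an r of 0.63 (permutation p = 0.0341, adjusted p = 0.179), and 0.41 without the 2 cows farthest from the median of ERAP1. TAPBP and NLRC5 had a lower r of 0.448 (permutation p = 0.145, adjusted p = 0.318). After adjustment 0 pairs passed (0 by r and 0 by rho; 4 by r at an unadjusted p under 0.05), but 2 passed without Shweta Kapila low 3. Without the 2 cows farthest from the median of the first gene, r was 0.477 for TAP1 and NLRC5, 0.733 for TAP1 and TAPBP, and 0.554 for CALR and PDIA3.

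Of the 21 pairs 12 had an r of the same sign in both breeds. That of ERAP1 with PDIA3 did not, at −0.288 in Gir and 0.757 in Shweta Kapila. The 3 pairs of highest r, picked over the same cows, kept a positive r within the breeds. For TAP1 and NLRC5 it was 0.766 in Gir (exact permutation p = 0.0806) and 0.793 in Shweta Kapila (exact permutation p = 0.0722). For TAP1 and TAPBP it was 0.635 and 0.684, and for CALR and PDIA3 0.586 and 0.785. PDIA3 ran against the coactivator and the transporter: with NLRC5 r was −0.90 in Gir (exact permutation p = 0.0167) and −0.47 in Shweta Kapila, and with TAP1 it was −0.588 in Gir and −0.902 in Shweta Kapila (exact permutation p = 0.0167). After adjustment over 21 pairs 0 passed within either breed. B2M had no r above 0.47 with any member over the 12 cows.

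**Figure D3:**
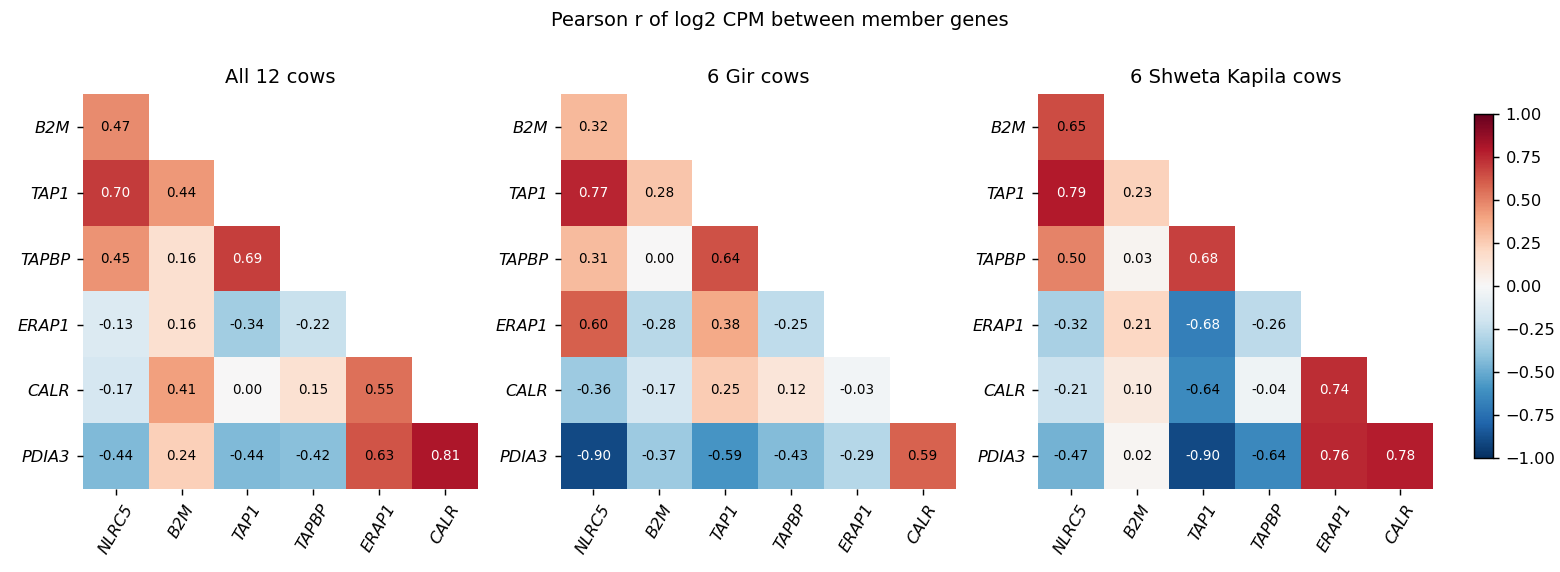
Pearson r of log2 CPM between the 7 genes over all 12 cows, over the 6 Gir cows and over the 6 Shweta Kapila cows. TAP1 with NLRC5 and with TAPBP, and CALR with PDIA3, are positive in all 3 panels, and PDIA3 with NLRC5 and TAP1 is negative in all 3.

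Since each library is scaled to its own total, the ratio of 2 members within a cow does not depend on the scaling. The log2 ratio of NLRC5 to TAP1 kept to a narrow band in 3 groups, from 0.64 to 0.91 in Gir high, 0.61 to 0.71 in Gir low and 0.54 to 0.68 in Shweta Kapila high, and ran from 0.15 to 0.57 in Shweta Kapila low. The log2 ratio of PDIA3 to TAPBP ran from −0.46 to 0.03 in Gir high and from −0.55 to −0.09 in Gir low. It spread from −0.86 to 0.42 in Shweta Kapila high and from −0.96 to 1.18 in Shweta Kapila low. That of TAPBP to TAP1 was tight in Shweta Kapila low, from 1.11 to 1.16. The level of such a ratio depends on the lengths of the genes, and only its change between cows is read here.

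PDIA3 on one side and TAP1 and TAPBP on the other had correlations of opposite sign with a property of the library. Over the 12 cows PDIA3 rose with the share that the 37 short identifiers took (r = 0.902, permutation p = 0.00016, adjusted p = 0.00224 over 14 relations; rho = 0.762, adjusted p = 0.0420), and r was 0.636 without the 2 farthest libraries. It was 0.689 within Gir (exact permutation p = 0.154) and 0.957 within Shweta Kapila (exact permutation p = 0.0125, adjusted p = 0.0875). PDIA3 also correlated with the log2 total count (r = 0.821, permutation p = 0.00193, adjusted p = 0.0135; rho = 0.608, adjusted p = 0.101; r = 0.683 without the 2 farthest). TAP1 fell with the share in Shweta Kapila (r = −0.974, exact permutation p = 0.00139, adjusted p = 0.0194), while in Gir r was −0.33 (exact permutation p = 0.543) and over all 12 cows −0.674 (permutation p = 0.0155, adjusted p = 0.0685). TAP1 had a pooled rho of −0.706 (adjusted p = 0.0612), and an r of −0.592 without the 2 farthest libraries. For TAPBP rho was −0.762 (adjusted p = 0.042) and r −0.612 (permutation p = 0.0344, adjusted p = 0.0689), with an r of −0.61 without the 2 farthest libraries. Within the breeds the r of TAPBP was −0.41 in Gir (exact permutation p = 0.385) and −0.725 in Shweta Kapila (exact permutation p = 0.101). For NLRC5 the pooled r was −0.64 (adjusted p = 0.0685) and it became −0.362 without the 2 farthest libraries. ERAP1 rose with the share (pooled r = 0.657, permutation p = 0.0223, adjusted p = 0.0685), with an r of 0.295 without the 2 farthest. CALR went from 0.583 to −0.05 in the same way, so its pooled r rests on those libraries, Shweta Kapila low 1 and low 2. Within Gir, which holds neither, the r of CALR was 0.536 (exact permutation p = 0.289), and within Shweta Kapila it was 0.656 (exact permutation p = 0.172).

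**Figure D4:**
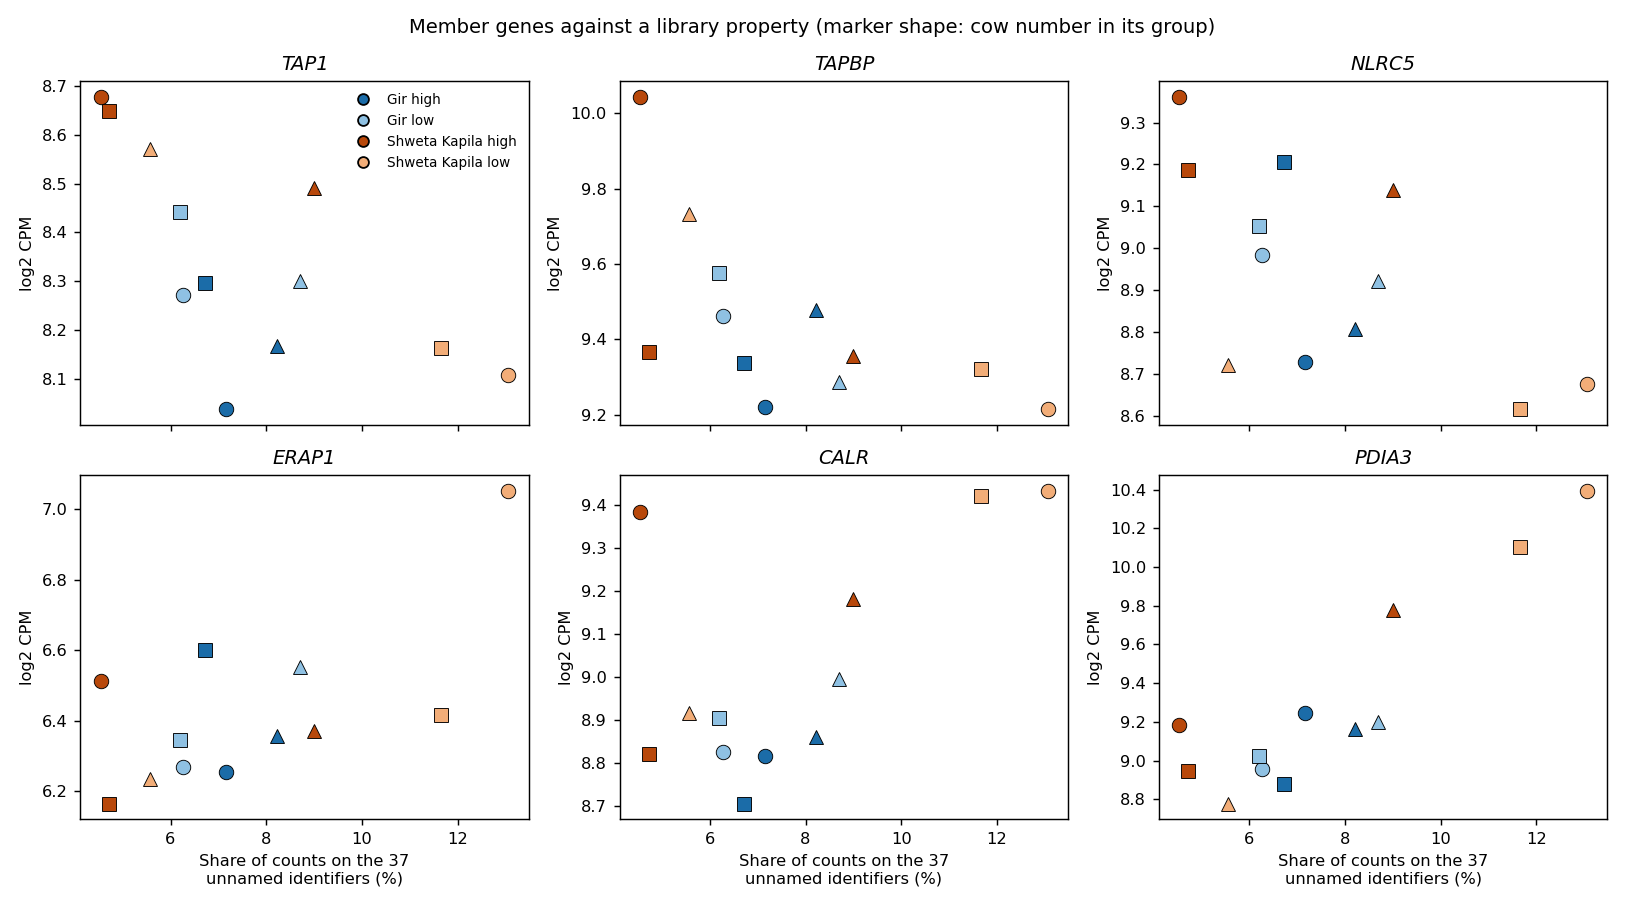
Log2 CPM of TAP1, TAPBP, NLRC5, ERAP1, CALR and PDIA3 in the 12 cows against the share of counts on 37 short identifiers without a name. PDIA3 is highest in Shweta Kapila low 1 and low 2, at shares of 13.1% and 11.7%, and TAP1 is highest in Shweta Kapila high 1 and high 2, at 4.54% and 4.73%.

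Other genes of the pathway were read from 5 lists with 52 symbols, of which 47 were tested. In Shweta Kapila 19 of the 47 were above 0 for high yield and 28 below, and 0 passed the adjusted test. All 9 peptidases that trim or destroy peptides had values below 0 (median −0.41, range −0.61 to −0.12, all genes −0.02), although none of them had an unadjusted p under 0.05. The yield classes overlapped for each of the 9. TPP2, the lowest of them, ran from 45.9 to 87.9 CPM with high and from 59.5 to 121 CPM with low yield. No peptidase was refitted with libraries left out. Of the 18 genes for class I transcription 14 were below 0 (median −0.35), the other side of 0 from NLRC5. In that list the class II coactivator CIITA was at −0.59 ± 0.50. All 4 genes of class I turnover were above 0 (median 0.38). Of the 14 loading and folding factors of the endoplasmic reticulum 9 were above and 5 below 0 (median 0.20), and TAPBPL, the second tapasin-like editor of peptides, was at 0.61 ± 0.30.

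PDIA6, a disulphide isomerase of the endoplasmic reticulum, was the pathway gene of lowest p in Shweta Kapila. It stood at 149.9, 97.2 and 155 CPM in high 1 to 3 and at 208, 233 and 175 CPM in low 1 to 3. All 3 low-yielding cows lay above all 3 high-yielding cows, low 3 included, which was lowest for PDIA3. Its log2 fold change was −0.62 ± 0.22 (unadjusted p = 0.0147, adjusted p = 0.655). The Gir difference minus this difference was 0.78 ± 0.31 for PDIA6 (unadjusted p = 0.0254, adjusted p = 0.955).

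In Gir 29 of the 47 pathway genes were above 0 and 18 below for high yield (median 0.06; 47.4% of all genes were above 0), and again 0 passed. P4HB, the best known protein disulphide isomerase, stood at 288, 320.4 and 405 CPM in Gir high 1 to 3 and at 264, 223 and 242 CPM in low 1 to 3, with no overlap (0.48 ± 0.22; unadjusted p = 0.048, adjusted p = 1). B2M also pairs with heavy chains other than BOLA, and 2 of 7 such genes were measured. FCGRT, the neonatal Fc receptor that spares IgG and albumin from breakdown, stood at 112, 124 and 102 CPM in Gir high 1 to 3 and at 78.2, 49.2 and 40.6 CPM in Gir low 1 to 3. In Shweta Kapila it stood at 159, 54.2 and 28.1 CPM with high and 23.9, 29.7 and 79.4 CPM with low yield. For FCGRT the Gir classes did not overlap and the Shweta Kapila classes did. Without overlap in Gir were 2 of 18 transcription genes, 1 of 9 peptidases, 1 of 14 loading factors and 1 of 2 B2M partners. Among the 4 turnover genes 0 were. Over all genes the share without overlap was 10.2%, in either direction, so such a separation is common in Gir. Sums of myeloid markers did not overlap between the same Gir classes either, by narrow gaps. Summed monocyte markers (3 of 6 measured, none at 0) ran from 356 to 567 CPM with high and from 209 to 353 CPM with low yield. Summed neutrophil markers ran from 2640.2 to 4238 against 2027 to 2625 CPM. Singly, 2 of the 3 monocyte markers and 1 of the 5 neutrophil markers were higher without overlap, and the others overlapped. Their part in the values of P4HB and FCGRT was not tested. The yield difference of FCGRT averaged over both breeds was 0.94 ± 0.41 (unadjusted p = 0.0399, adjusted p = 0.874). HFE, the B2M partner that regulates iron uptake, was at 0.24 ± 0.29 in the same comparison.

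Between the breeds 18 of the 47 pathway genes were higher and 29 lower in Gir by sign, and 0 passed. HSP90B1, the chaperone also called GRP94, stood at 403 ± 58.8 (SD) in Gir against 644 ± 327 CPM in Shweta Kapila (log2 difference −0.63 ± 0.27, unadjusted p = 0.0362). In Shweta Kapila low 1, low 2 and high 3 it was at 1016, 1037 and 717 CPM and in the other 9 cows between 329 and 493 CPM, the division of cows that PDIA3 shows. IFNGR2, a chain of the interferon gamma receptor, was at 293 ± 58.7 against 209 ± 43.1 CPM (0.47 ± 0.17, unadjusted p = 0.0162). EZH2, a histone methyltransferase that silences class I genes in some tumours, was at 31.3 ± 4.76 against 48.0 ± 17.3 CPM (−0.61 ± 0.23), and ATF1, a factor that binds the X2 element of class I promoters with CREB1, was at 42.7 ± 7.43 against 65.6 ± 30.2 CPM (−0.59 ± 0.26). The adjusted p of these 4 lay between 0.415 and 0.505 in edgeR's test.

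**Figure D5:**
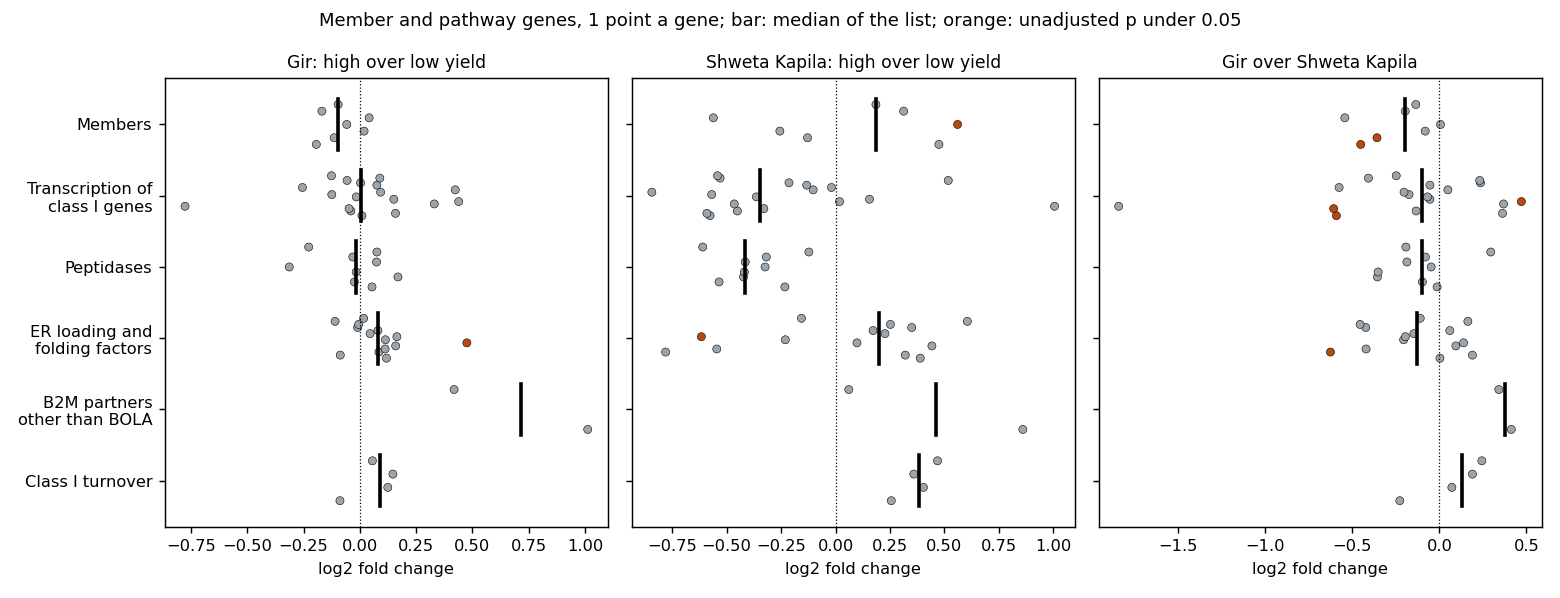
Log2 fold changes of the members and of 47 other pathway genes in 5 lists, 1 point a gene, for yield in each breed and for breed. Black bars give the median of a list, and orange points have an unadjusted p under 0.05. In Shweta Kapila all 9 peptidases lie below 0 and all 4 turnover genes above it, and the yield classes overlap for each of these genes.

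The genes whose levels were most like those of 4 members over the 12 cows were found among 11895 named genes by Pearson r, as a description. For B2M these were HOPX (r = 0.961), CXCR6, a chemokine receptor of effector T and NK cells (0.956), and H2AZ2 (0.955). Of all genes 1.29% had an r above 0.8 with B2M. Within either breed r was above 0.88 for all 3, which were picked over the same cows. For NLRC5 they were GBGT1 (0.898), WDR31 (0.895) and JAK3, the kinase of the common gamma chain receptors (0.881, and 0.633 within Gir). For TAP1 they were GNA12 (0.914), MELTF (0.899) and B3GAT2 (0.895). For CALR they were MBTPS2, the site-2 protease (0.915), PQBP1 (0.911) and RNF19B (0.908). Within Gir the r of MBTPS2 was only 0.05 and that of RNF19B 0.373.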

How the data were processed

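The authors deposited expected counts per gene, of which 57.0% were not whole (tolerance 1e-06), with no scaling visible in the column totals. Trimmomatic and FastQC are named, without versions, per the submitters' processing notes. Aligner, counter, strand setting and genome build were not given in the sources used here, so reads of overlapping or near-identical genes may be split in unknown ways. Gene coordinates and sequences were not used here.

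Symbols came by identifier from a RefSeq gene table of the assembly NIAB-ARS_B.indTharparkar_mat_pri_1.0 (22754 identifiers, 86.8%, matched). The expected counts were rounded to whole numbers. Under edgeR 4.0.16 (R 4.3.3), low genes were dropped with filterByExpr (minimum count 10, minimum total 15), TMM factors scaled the libraries, and 1 robust quasi-likelihood model held the 4 group means. Tests were 2-sided with Benjamini-Hochberg adjustment over 15420 genes, and calls needed an adjusted p under 0.05. SEs are the absolute log2 fold change divided by the square root of F. CPM are counts scaled to the TMM library size, and M stands for mega. Correlations used log2 CPM (prior count 2) and 100000 permutations over 12 cows, or all orderings over 6, with SciPy 1.17.1 and NumPy 2.4.6 under Python 3.11.15. Tables used pandas 2.3.3 and plots matplotlib 3.10.9. DESeq2 1.42.0 was an alternative. The fit and the permutation tests were tested on simulated data.

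Members and lists were chosen with earlier results of these data known. Beyond the members, pathway genes with an unadjusted p under 0.05 (up to 6 in a comparison) were named, and for likeness the 3 named genes of highest r with TAP1, B2M, NLRC5 and CALR. CIITA, TAPBPL and HFE were named after their values were seen. Alternatives were other scaling, filter and test, covariates, the replicate block, and libraries left out, and scaling without the short identifiers was added after seeing the data.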

Additional observations from a re-analysis of the deposited data

How the results depend on the processing

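Each member had at least 1135 counts per library, and each group had 3 cows. Library totals still correlated with PDIA3 (r = 0.821 over the 12 cows). It was the only member whose r with the log2 total count passed adjustment. Each of 35 member differences was computed under 20 alternatives (700 values): 642 kept direction and side of the threshold, 57 changed sign and 1, PDIA3 for breed without Shweta Kapila low 3, passed the threshold. The cause of these changes was not tested. The fit without the 3 largest libraries holds Shweta Kapila low 3 as the only low-yielding cow of that breed.

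The sign changed with the log2 total count as covariate for Gir yield in ERAP1 (−0.0069) and PDIA3 (−0.030), for yield by breed in CALR (−0.049), and for breed in NLRC5 (−0.021) and ERAP1 (0.040). With the short identifier share as covariate it changed for Gir yield in PDIA3 (−0.022), for Shweta Kapila yield in TAPBP (−0.10), ERAP1 (0.028), CALR (0.11) and PDIA3 (0.31), for mean yield in TAP1 (−0.021), TAPBP (−0.083), ERAP1 (0.017) and PDIA3 (0.14), for yield by breed in TAPBP (0.032), ERAP1 (−0.023), CALR (−0.24) and PDIA3 (−0.33), and for breed in NLRC5 (−0.014). Without the 3 largest libraries it changed for Shweta Kapila yield in ERAP1 (0.11), CALR (0.21) and PDIA3 (0.29), for mean yield in TAP1 (−0.039), TAPBP (−0.047), ERAP1 (0.065), CALR (0.047) and PDIA3 (0.17), for yield by breed in ERAP1 (−0.094), CALR (−0.32) and PDIA3 (−0.25), and for breed in NLRC5 (−0.031), ERAP1 (0.12) and PDIA3 (0.17).

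With each cow left out in turn the sign changed in these ranges: Gir yield of NLRC5 −0.22 to 0.032, ERAP1 −0.087 to 0.10 and PDIA3 −0.036 to 0.14; Shweta Kapila yield of TAPBP −0.070 to 0.36, ERAP1 −0.41 to 0.018 and CALR −0.28 to 0.013; mean yield of TAPBP −0.086 to 0.13 and ERAP1 −0.20 to 0.016; yield by breed of ERAP1 −0.0048 to 0.43 and CALR −0.13 to 0.16; breed of TAPBP −0.19 to 0.0051, NLRC5 −0.057 to 0.052 and ERAP1 −0.16 to 0.072.

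Over all genes edgeR called 0 in each comparison, and DESeq2 called 1 for Gir yield, 61 for Shweta Kapila yield, 4 for mean yield, 9 for yield by breed and 195 for breed. With the total count as covariate there were 1 for Shweta Kapila yield and 53 for breed, with the share as covariate 24 for breed, without the largest libraries 3 for Shweta Kapila yield, 1 for mean yield and 31 for breed, and without the filter 3 for breed. Leaving out a cow gave 0 to 2 for Shweta Kapila yield, 0 to 1 for yield by breed (1 without Shweta Kapila low 1) and 0 to 447 for breed (447 without Shweta Kapila low 3), and 0 to 2 member pairs (1 without Shweta Kapila high 1 or high 2, 2 without low 3).

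Replicate numbers were not taken to pair the cows. Deviations of same-numbered cows from their group means correlated at −0.06, −0.06 and 0.01 in Gir and −0.51, −0.13 and −0.56 in Shweta Kapila. With 3 cows a group these values cannot decide whether cows were paired. With the replicate number as a block, NLRC5 for Shweta Kapila yield was at 0.56 (adjusted p = 0.791 in edgeR), and 1 gene was called for breed and 0 in the other comparisons.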
